A study of Mus musculus with 4 samples.

Results

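Complex I of the mitochondrial respiratory chain was described through the genes whose symbol starts with Nduf, the name family of its nuclear-encoded subunits (Ndufa, Ndufb, Ndufc, Ndufs and Ndufv) and of assembly factors (Ndufaf). Members were the probe sets annotated with exactly 1 symbol of this kind, and a gene with several probe sets was represented by the brightest. This gave 43 genes from 48 probe sets, of 19938 genes in all: 34 subunits of complex I (6 core, 28 accessory), 7 assembly factors and 2 genes that carry the name but are placed outside the complex, Ndufa4 and Ndufa4l2. Listed genes without a probe set that meets the rule, among them Ndufb1, Ndufb4 and Ndufaf8, were not analysed here as members.

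Complex I takes electrons from NADH, passes them along a chain of iron-sulfur clusters to ubiquinone and pumps protons across the inner membrane. Its core subunits carry the flavin, the clusters and the quinone site, its accessory subunits surround and stabilise that core, and assembly factors help to build the complex but are not part of the finished enzyme. Part of the core is encoded by mitochondrial DNA, and developing neurons come to depend on this enzyme as they turn from glycolysis to respiration.

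The RNA was that of whole fetal brains from the inbred mouse strain C57BL/6J at embryonic day 16, with the sex of the fetuses labelled as unknown. The ethanol group came from dams injected with ethanol in saline at 2.5 g per kg on gestational days 14 and 16, and the control group from dams injected with saline of the same volume on the same days. Each of the 4 Affymetrix whole-transcript arrays, 2 per group, was hybridised with RNA pooled from 3 mice, 12 mice in all. The sources used here do not say how litters were spread over the pools, so p-values measure only the spread between these pools. Values are log2 brightness as deposited, and a difference is the ethanol mean minus the control mean on that scale.

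The arrays had medians of 8.01 to 8.04 over all probe sets, and the number of arrays limits the precision. All 10 neuronal marker genes (among them Dcx and Snap25) were at 10.95 or above on every array, above those medians. The pools differed in tissue other than brain: the summed brightness of 12 skeletal muscle genes was 2262 and 7218 in ethanol 1 and ethanol 2, and 20839 and 2220 in control 1 and control 2. All 12 of these muscle genes had a mean below 0 in the ethanol minus control difference, with a median of -0.76. Meningeal and pericyte markers (9 of 10 below 0, median -0.24), mitosis genes (9 of 9, median -0.17) and endothelial markers (8 of 8, median -0.16) also had their highest median in control 1. Other lists did not lie low as a whole, though the neuronal marker Tubb3 was at -0.38. The median was 0.028 for neurons (7 of 10 above 0) and 0.081 for cartilage (4 of 6). It was 0.024 for erythroid cells (4 of 6 above 0) and -0.0040 for radial glia and progenitors (4 of 9). The part of these tissues and cells in the values of single members was not tested. The summed brightness of the 34 subunits was 57613 and 58777 in the ethanol pools and 59990 and 58158 in the control pools. Fewer cells of a type and less RNA per cell cannot be told apart in whole-brain RNA.

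Transcripts of complex I as a group stood close to 0 in the comparison of ethanol with control, and a few single subunits lay at either end. The 43 genes had a median log2 difference of -0.0049, with 20 above and 23 below 0. Over all genes tested the median was 0.0088, with 10804 above and 9134 below 0. It was -0.020 over the genes above the median brightness, where 36 of the 43 members lie. Ndufb2 had the lowest value (-0.39) and Ndufa1 the highest (0.35). Within 0.1 of 0 lay 31 of the 43, beside 14207 of the 19938 genes tested, so members were about as near to 0 as genes in general. Limma called 0 of the 43 genes after Benjamini-Hochberg adjustment over all genes, as it called 0.0% of all genes, and the smallest adjusted p among the members was 0.980. An ordinary test without shared variance also called 0 after adjustment. With so few arrays that test could hardly call any gene after adjustment over all genes, so its result decides nothing about the members.

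At an unadjusted p under 0.05 limma picked 3 of the 43 genes, against 2.94% of all genes, a share that would be 1.27 genes among 43. One direction held 1 gene, Ndufa1, higher in ethanol (1.58% of all genes were picked in that direction), and the other held 2, Ndufb2 and Ndufa11, lower in ethanol (1.36% of all genes). Both ethanol arrays lay above both control arrays in 10 of the 43 genes, against 17.4% of all genes, and below both in 11, against 14.0% of all genes. The median size of the ethanol minus control difference, sign aside, was 0.070 over the members. Within a group, 2 pools differed by a median of 0.084 (ethanol) and 0.071 (control) in the same genes. Single arrays vary more than means of 2 arrays, so these values are not like for like with the first. Over all genes tested the same medians were 0.061 between groups, 0.091 within ethanol and 0.079 within control.

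**Figure D1:**
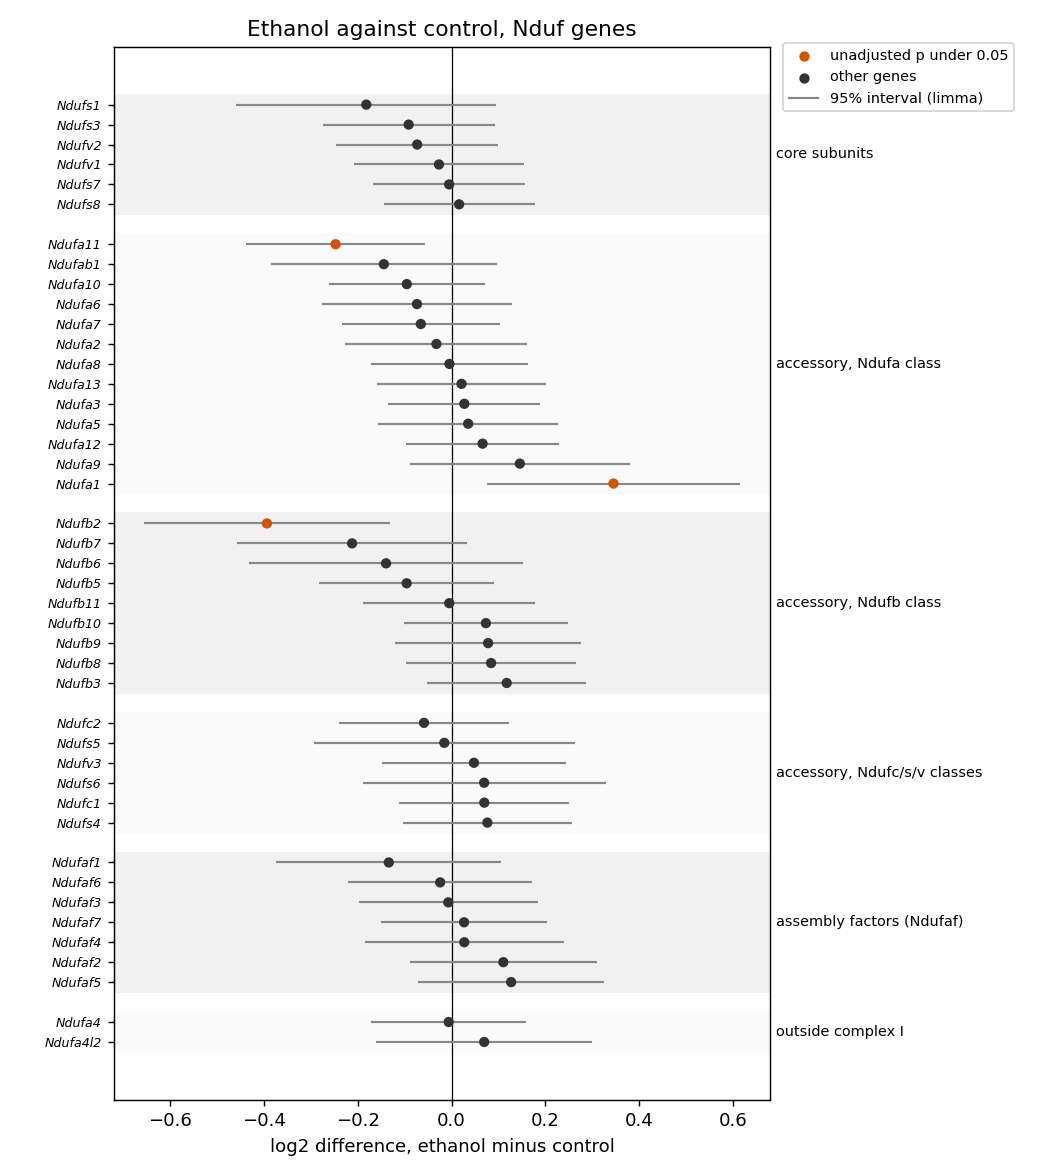
Log2 difference between the ethanol and control means (x axis) for each of the 43 Nduf genes (y axis, grouped by role), with 95% intervals from limma as bars. Orange points are the 3 genes with an unadjusted p under 0.05: Ndufb2 and Ndufa11 to the left of 0 and Ndufa1 to the right.

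The 3 genes are accessory subunits of the membrane arm, and the 250 bases before their annotated start are printed here because these members carry the largest differences and 2 of them share a motif. Sequences are RefSeq's for GRCm38.p6, 5′ to 3′ on the gene's strand, and capitals mark matches to motifs described further on. Ndufb2 is at chr6:39592315-39592564 (plus strand), Ndufa11 at chr17:56717512-56717761 (plus strand) and Ndufa1 at chrX:37191239-37191488 (minus strand).
Ndufb2: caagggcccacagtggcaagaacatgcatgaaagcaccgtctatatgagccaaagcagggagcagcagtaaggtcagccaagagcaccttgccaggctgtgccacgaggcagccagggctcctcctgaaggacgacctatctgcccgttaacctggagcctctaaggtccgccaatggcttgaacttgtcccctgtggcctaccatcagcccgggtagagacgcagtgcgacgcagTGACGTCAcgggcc
Ndufa11: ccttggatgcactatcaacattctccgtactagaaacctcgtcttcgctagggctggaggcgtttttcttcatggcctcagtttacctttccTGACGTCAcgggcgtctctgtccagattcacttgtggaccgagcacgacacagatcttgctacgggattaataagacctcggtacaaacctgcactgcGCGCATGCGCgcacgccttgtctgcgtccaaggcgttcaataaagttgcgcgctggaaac
Ndufa1: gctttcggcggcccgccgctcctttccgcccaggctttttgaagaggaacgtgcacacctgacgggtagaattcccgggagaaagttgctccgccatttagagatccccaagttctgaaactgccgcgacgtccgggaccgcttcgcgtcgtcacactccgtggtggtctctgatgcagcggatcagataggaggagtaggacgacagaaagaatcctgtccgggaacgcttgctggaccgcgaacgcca

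Ndufb2 (probe set 10537452), a small subunit of the distal membrane arm, stood at 7.63 and 7.91 in ethanol 1 and ethanol 2 and at 8.14 and 8.18 in control 1 and control 2. Both ethanol pools lay below both control pools, with ethanol 1 the lowest. The log2 difference was -0.39 ± 0.11 (SE, 2 arrays per group), so the control mean was 1.31-fold the ethanol mean. It had the smallest p among the members' brightest probe sets (limma, unadjusted p = 0.011, adjusted p = 0.980). With an array left out the difference ranged from -0.53 (without ethanol 2) to -0.26 (without ethanol 1), with an unadjusted p under 0.05 each time.

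Ndufa11, a membrane-arm subunit that lies where complex I meets complex III in supercomplexes, has 2 probe sets. The brighter (10446166) stood at 10.48 and 10.35 in the ethanol pools and at 10.69 and 10.64 in the control pools, a difference of -0.25 ± 0.08 (SE). Its second probe set (10434664) stood at 9.94 and 10.29 against 10.71 and 10.80, a difference of -0.64 ± 0.13 with an unadjusted p of 0.00269 in limma. The mean of both sets gave -0.45, with an unadjusted p of 0.00105 in limma. The groups did not overlap in either set, while the size differed by over 1.5 times between them. RefSeq lists a transcribed pseudogene, Ndufa11b, so the probe sets can share signal with a near copy and the value of the gene itself is uncertain. For the brighter set limma gave an unadjusted p of 0.020 (adjusted p = 0.980), and the gene was no longer below 0.05 without ethanol 2 (difference -0.18) or without control 1 (-0.22).

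Ndufa1 (probe set 10604100), a small X-linked subunit of the membrane arm, stood at 7.69 and 7.94 in the ethanol pools and at 7.40 and 7.54 in the control pools. Both ethanol pools lay above both control pools. The difference was 0.35 ± 0.11 (SE), or 1.27-fold (limma, unadjusted p = 0.021, adjusted p = 0.980). Leaving out ethanol 2 gave 0.22 and leaving out control 1 gave 0.27, and neither kept an unadjusted p under 0.05. The pools also differed in sex-linked RNA: Xist, which silences an X chromosome in females, was at 6.10 in control 1 and at 11.96 to 12.84 in the other pools. The Y-linked Eif2s3y was at 11.17 and 10.03 in ethanol 1 and ethanol 2, and at 11.58 and 9.98 in control 1 and control 2. Kdm5d and Uty, also Y-linked, were likewise higher in ethanol 1 and control 1 than in ethanol 2 and control 2. The part of sex in the Ndufa1 value was not tested. In RefSeq the start of Ndufa1 overlaps the neighbouring gene Rnf113a1, whose own probe set had a difference of -0.15 ± 0.07.

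**Figure D2:**
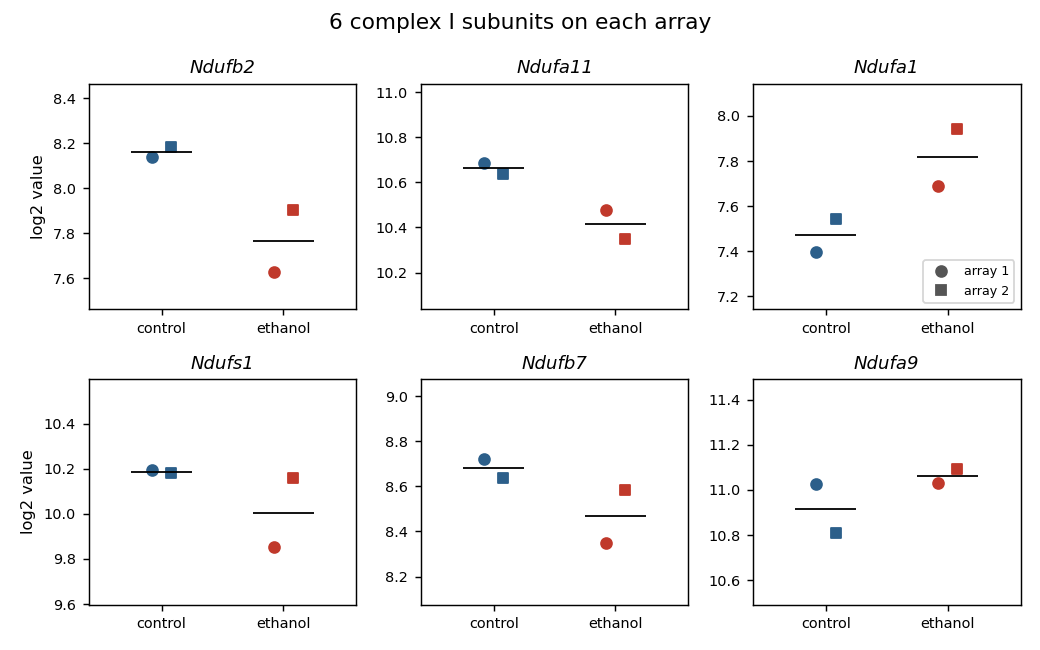
Log2 value (y axis, each panel spanning 1 log2 unit) of 6 complex I subunits on the 2 control and 2 ethanol arrays, with lines at the group means. Ndufb2 and Ndufa11 lie lower and Ndufa1 higher on both ethanol arrays, while Ndufs1 and Ndufb7 are low mainly on ethanol 1 and Ndufa9 is low mainly on control 2.

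The core subunits had 5 of 6 values below 0 (beside 9134 of 19938 over all genes tested), with a median of -0.050. None had an unadjusted p under 0.05 in limma. Over the core, ethanol 1 minus control 1 and minus control 2 gave medians of -0.12 and -0.031. Ethanol 2 minus the same arrays gave -0.045 and -0.012. Ndufs1, the large iron-sulfur subunit of the NADH-oxidising module, stood at 9.85 and 10.16 in the ethanol pools and at 10.19 and 10.18 in the control pools. Its difference of -0.18 ± 0.11 (SE) came down to -0.030 without ethanol 1 and stood at -0.33 without ethanol 2, so it rests on ethanol 1. Ndufs3, which helps to form the quinone-reducing module, was at -0.09 ± 0.07, and its second probe set at -0.06. Without an array the brighter set ran from -0.14 (control 2) to -0.040 (control 1), with -0.061 without ethanol 1. Ndufv2, a carrier of an iron-sulfur cluster beside the flavin, was at -0.07 ± 0.07, and at -0.038 without control 1.

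Ndufv1, which binds NADH and the flavin, was at -0.027 ± 0.073. Ndufs7, which carries the last iron-sulfur cluster before the quinone, was at 12.05 and 12.03 against 12.04 and 12.04, a difference of -0.0051 ± 0.065. These pools were nearly level, and the 95% interval of the Ndufs7 difference ran from -0.17 to 0.16. Ndufs8, a carrier of further clusters in the same module, was at 10.775 and 10.777 against 10.760 in both control pools, with a difference of 0.016 ± 0.065. It was the only member that the ordinary test picked at an unadjusted 0.05, with a standard error of 0.0011 there beside limma's 0.065.

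Accessory subunits spread to both sides of 0, with 14 above and 14 below and a median of 0.0084. By class, the medians were -0.0045 over the 13 Ndufa genes (Ndufab1 among them), -0.0049 over the 9 Ndufb genes and 0.059 over the 6 genes of the Ndufc, Ndufs and Ndufv classes. The Ndufb genes, which build the distal membrane arm, had differences of a median size of 0.096, sign aside, with Ndufb2, Ndufb7, Ndufb6 and Ndufb5 at the low end, beside 0.066 over the Ndufa genes. Ndufb7, a subunit on the intermembrane side, stood at 8.35 and 8.59 in the ethanol pools and at 8.72 and 8.64 in the control pools, a difference of -0.21 ± 0.10 (SE). It was -0.095 without ethanol 1 and -0.33 without ethanol 2. Ndufb6 stood at 10.97 and 11.30 against 11.27 and 11.28, so the groups overlapped and ethanol 1 alone was low. Its difference of -0.14 ± 0.12 came to 0.025 without ethanol 1. Ndufb5 had a difference of -0.10 ± 0.07, which was -0.035 without ethanol 1 and -0.16 without ethanol 2.

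Ndufab1, the mitochondrial acyl carrier protein, stood at 9.86 and 10.10 against 10.12 and 10.13, a difference of -0.14 ± 0.10, with a second probe set at -0.08. For the brighter set it was -0.023 without ethanol 1 and -0.27 without ethanol 2. Again ethanol 1 was the low array and ethanol 2 lay close to the control pools. On the high side, Ndufa9, a subunit related to short-chain dehydrogenases at the joint of the arms, stood at 11.03 and 11.10 against 11.03 and 10.81. Its difference of 0.15 ± 0.09 was 0.035 without control 2, the only low pool, and 0.26 without control 1. Ndufb3, of the membrane arm, was at 0.12 ± 0.07, with 8.16 and 8.19 against 8.10 and 8.02. Ndufb8 and Ndufb9, also of that arm, were at 0.08 ± 0.07 and 0.08 ± 0.08. These 2 were at 0.041 and 0.016 without ethanol 1, at 0.13 and 0.14 without ethanol 2, at 0.048 and 0.030 without control 1 and at 0.12 and 0.13 without control 2.

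Probe sets shared by several symbols were not members. The 2 shared by Ndufb4 and Ndufb4b had differences of 0.060 and 0.055, and the 1 shared by Ndufs5 and the transcribed pseudogene Ndufs5-ps had -0.16, beside -0.015 for the set of Ndufs5 alone. RefSeq also lists pseudogenes of Ndufa12, Ndufab1 and Ndufs6, so these genes carry the same uncertainty as Ndufa11. The other members with 2 probe sets were Ndufb11, at -0.0049 and 0.019, and Ndufc1, at 0.070 and 0.052.

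Assembly factors had 4 of 7 values above 0 and a median of 0.027, and none had an unadjusted p under 0.05. Ndufaf5, which hydroxylates an arginine of Ndufs7, stood at 8.66 and 8.61 in the ethanol pools and at 8.43 and 8.58 in the control pools, a difference of 0.13 ± 0.08 (SE), which was 0.053 without control 1 and 0.20 without control 2. Ndufaf2, a paralog of Ndufa12 that acts late in assembly, stood at 8.99 and 8.86 against 8.86 and 8.77, with a difference of 0.11 ± 0.08, which was 0.045 without ethanol 1, 0.18 without ethanol 2 and 0.065 without control 2. In both genes the ethanol pools lay above the control pools, in Ndufaf2 by a very small gap between ethanol 2 and control 1. Ndufaf1, a chaperone of the membrane arm, stood at 8.76 and 9.001 against 9.02 and 9.01, a difference of -0.13 ± 0.10 with ethanol 1 as the low pool. It was -0.013 without ethanol 1 and -0.25 without ethanol 2.

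The remaining factors were nearer to 0. Ndufaf3 and Ndufaf4, which act together early in assembly, were at -0.0070 ± 0.077 and 0.027 ± 0.085. Ndufaf6 was at -0.024 ± 0.079, and Ndufaf7, a methyltransferase, at 0.027 ± 0.071. Outside the complex, Ndufa4, now counted as a subunit of complex IV, was at -0.0061 ± 0.066. Ndufa4l2, its hypoxia-inducible paralog, was at 0.070 ± 0.093, with values of 6.44 to 6.66 close to the lower quartile of the arrays (6.45 to 6.55), where differences are hard to read.

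Subunits and assembly factors were set against each other on each array. After each gene was centred on its mean over the 4 arrays, the subunit median was 0.0037 and 0.0057 in ethanol 1 and ethanol 2 and 0.021 and -0.0053 in control 1 and control 2. The median of the assembly factors was -0.0049 and 0.041 in the ethanol pools and -0.027 and 0.011 in the control pools. Subunits minus assembly factors therefore gave 0.0086, -0.035, 0.048 and -0.016 in that order of pools. The groups overlapped in this quantity, and the pools within a group lay farther apart than the means of the groups. Single pools vary more than means of 2 pools, so that comparison is not like for like. The median of the subunits minus that of the assembly factors, in the ethanol minus control differences, was -0.032, and it turned to 0.016 without ethanol 2 and to 0.0014 without control 1.

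**Figure D3:**
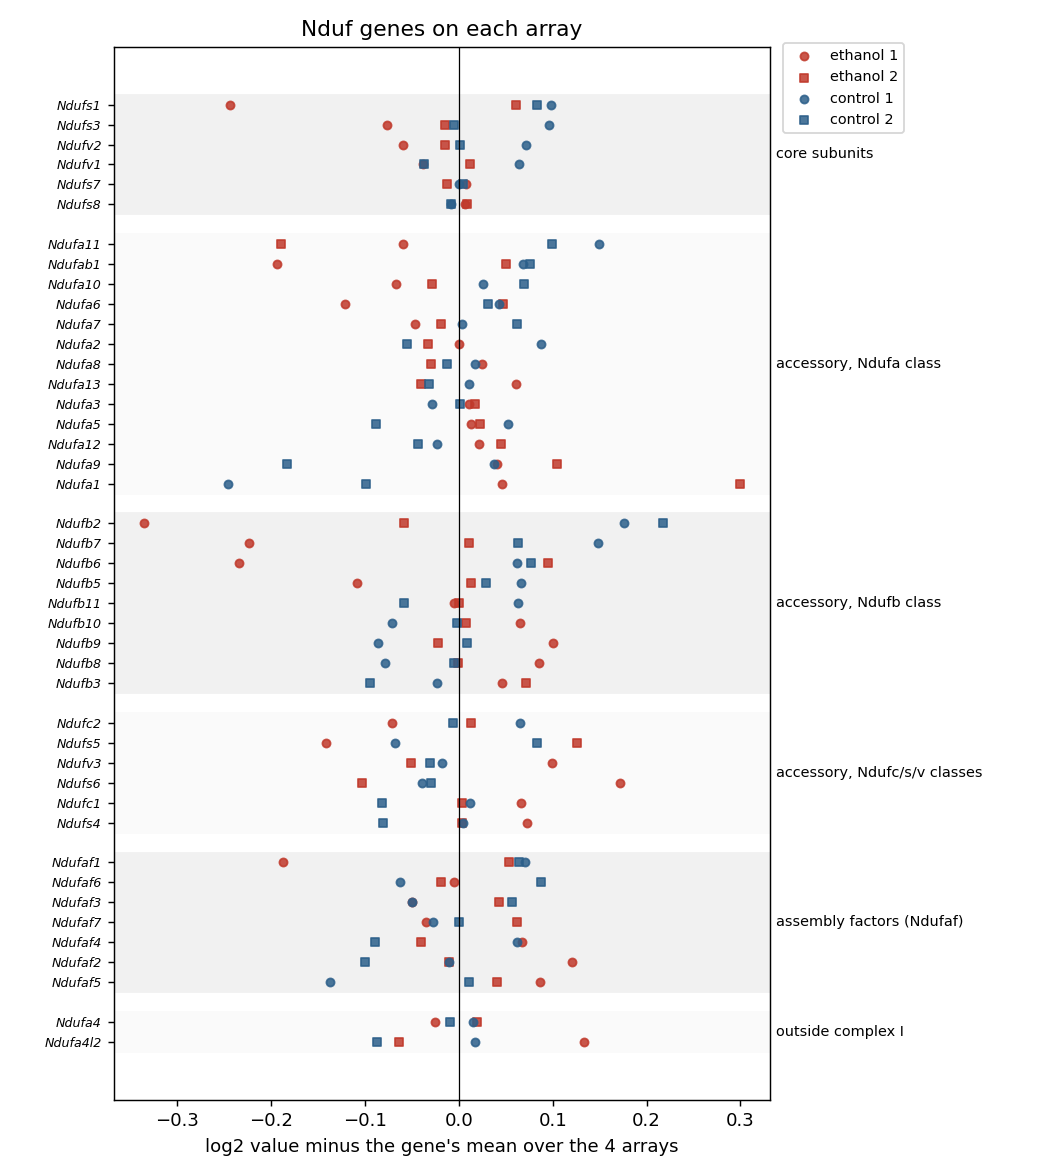
Log2 value minus the mean of the gene over the 4 arrays (x axis) for each Nduf gene (y axis, grouped by role), with ethanol arrays in red and control arrays in blue. Ethanol 1 (red circles) lies far to the left of the other arrays in Ndufs1, Ndufab1, Ndufb2, Ndufb7, Ndufb6 and Ndufaf1.

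Ethanol 1 was the array on which members most often stood apart. It held the lowest value in 17 of the 43 genes, or 39.5%, and in 24.9% of all genes. In 8 members it lay below the other 3 arrays by at least 0.1, a limit set after the values were seen: Ndufa6, Ndufab1, Ndufaf1, Ndufb2, Ndufb5, Ndufb6, Ndufb7 and Ndufs1. That is 18.6% of the members, beside 7.57% of all genes and 12.8% of the genes above the median brightness, where 36 of the 43 members lie. On the other arrays 1 member was that far below the rest on ethanol 2 (Ndufa11, beside 2.96% of all genes), 2 on control 1 (beside 8.14%) and 2 on control 2 (beside 3.13%). Ethanol 1 also lay above the other 3 arrays by at least 0.1 in 4 members (Ndufa4l2, Ndufaf2, Ndufs6 and Ndufv3), or 9.3%, beside 15.7% of all genes and 5.78% of the brighter genes. Without ethanol 2, ethanol 1 is the single ethanol array. The genes at an unadjusted p under 0.05 in limma were then 6, all lower in ethanol (Ndufab1, Ndufaf1, Ndufb2, Ndufb6, Ndufb7 and Ndufs1), against 8.54% of all genes. Without ethanol 1 the differences were -0.26 (Ndufb2), -0.31 (Ndufa11) and 0.47 (Ndufa1). The arrays left are among those on which these 3 genes were picked, so this is no independent check.

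Windows of 300 bases, from 250 before to 50 after the start, were matched for 38 of the 43 members and searched on both strands for motifs of factors known to act on respiratory genes. The NRF1 motif, searched as GCGCNTGCG, was in 10 of 38 members (26.3%) and in 7.12% of all 27025 genes with a window. These members were Ndufa5, Ndufa6, Ndufa8, Ndufa11, Ndufa12, Ndufaf4, Ndufaf5, Ndufb10, Ndufs5 and Ndufs6. An ETS motif, the kind GABPA binds, searched as CCGGAAG, was in 5 members (13.2%) and in 9.93% of all genes, and the ERR alpha motif TCAAGGTCA was in 0 members and 0.466% of all genes. Member windows were richer in G and C, with a median of 59.2% against 52.7%. A match is a description of the sequence and does not show that a factor binds there.

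The CREB motif TGACGTCA was added after the sequences had been read, since it stands in both Ndufb2 and Ndufa11. Beside these it was in 1 further member, Ndufa10, and it overlapped no other motif in these members. It was in 2.03% of all genes, and since it was picked from members' own sequences no share of the members is set against that value. Its first base is 14, 158 and 67 bases before the start in Ndufb2, Ndufa11 and Ndufa10. Ndufa10, a membrane-arm subunit related to nucleoside kinases, stood at 11.18 and 11.22 in the ethanol pools and at 11.28 and 11.32 in the control pools, a difference of -0.10 ± 0.07 (SE). Of the 10 members with the NRF1 motif, Ndufa11 had both ethanol pools below and Ndufa12, Ndufaf5 and Ndufb10 had both above the control pools, and the groups overlapped in the other 6. Over all genes tested, 14.0% had both ethanol pools below and 17.4% had both above, and whether the motif plays a part was not tested.

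Other mitochondrial genes were read in the same fit. Of 12 further complex I assembly genes without the Nduf name, 6 were above and 6 below 0 (median -0.0020). None had an unadjusted p under 0.05, and the one farthest from 0 was Acad9, a dehydrogenase that doubles as a membrane-arm assembly factor, at -0.17 ± 0.07. No probe set of its own was matched for the 7 subunits encoded by mitochondrial DNA, which were not analysed here. Complex III genes had a median of -0.091 with 11 of 15 below 0. Over all genes tested 9134 of 19938 lay below 0, and the genes above the median brightness had a median of -0.020. The low end of complex III was held by Uqcr11, a small subunit, at -0.64 ± 0.12 and Uqcc2, an assembly factor, at -0.47 ± 0.11. These were the 2 genes of that list with an unadjusted p under 0.05 in limma, beside 1.36% of all genes picked as lower in ethanol.

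Genes of complexes II, IV and V had a median of -0.040 with 22 of 28 below 0, beside 9134 of 19938 over all genes tested. Sdhd, a membrane anchor of complex II, at -0.23 ± 0.07 was the 1 gene at an unadjusted p under 0.05 in limma (1.36% of all genes were picked as lower). Ethanol 1 held the lowest value in 19 of the 28 genes (67.9%), beside 24.9% of all genes. Over the 28 genes, ethanol 1 minus control 1 and minus control 2 gave medians of -0.12 and -0.057. Ethanol 2 minus the same arrays gave -0.033 and 0.0038. The general mitochondrial genes (among them Cs and Vdac1) had a median of -0.023 over 10 genes, with Hspe1, a matrix chaperonin, farthest from 0 at -0.14 ± 0.09. Regulators of mitochondrial gene expression had a median of 0.045 over 9 genes, with the nuclear receptor Esrra farthest at 0.14 ± 0.07. No gene of these lists passed the adjusted test, and differences between the lists were not tested.

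**Figure D4:**
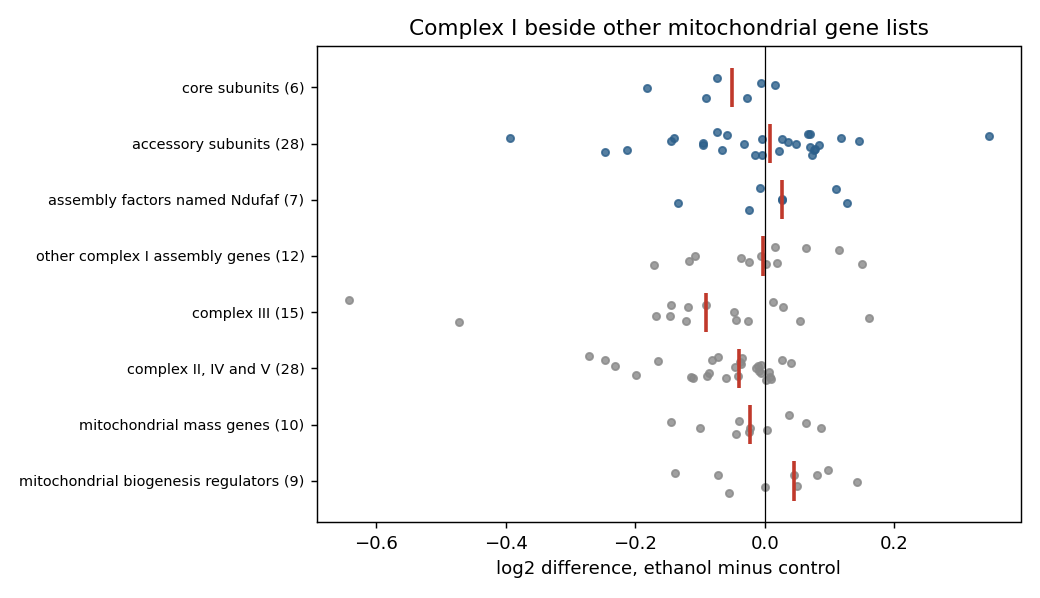
Log2 difference between ethanol and control means (x axis) for each gene of 8 mitochondrial lists (y axis, number of genes in brackets), with a red line at the median of each list. Complex I subunits and assembly factors (blue) have medians from -0.050 to 0.027, and the 2 genes farthest to the left are Uqcr11 and Uqcc2 of complex III.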

How the data were processed

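Values were used as the authors deposited them, 1 log2 value per probe set and array. Log2 was taken from the range of the values (the base is not stated). Per the submitters' processing notes, Partek 6.6 was used. The background removal, scaling and probe summary, not given in the sources used here, can alter differences at the dim end. Of 35556 probe sets, 21789 have 1 symbol, 1621 several and 12146 none. Symbols were updated by Entrez identifier (GRCm38.p6 table, 21698 matched). The table has 0 columns of other samples.

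All 19938 genes were fitted with limma 3.58.1 in R 4.3.3 (lmFit, eBayes, two-sided, 2 residual and 5.65 total degrees of freedom), with Benjamini-Hochberg adjustment over all of them and a threshold of 0.05. The fit was tested on simulated independent genes, with 50 genes changed at each of 1.2-, 1.5-, 2- and 4-fold. There the adjusted test called 0% of 1.2-fold, 34% of 1.5-fold and 90% of 2-fold changes. The strong changes planted there ease the adjustment, and the real pools differ in tissue, so these shares may be too high for the real arrays. Among the members' brightest probe sets the largest difference was 1.31-fold, so 0 adjusted calls does not show that members are unchanged. Members and lists were chosen with earlier results of these data known. Genes named were the core subunits, the Ndufaf genes, Ndufa4, Ndufa4l2, members at an unadjusted p under 0.05 and, of the other accessory subunits, the 4 farthest from 0 in each direction. Others, such as Ndufa10, Ndufb11, Ndufc1 and Ndufs5, were named after their values were seen, for a motif, a probe set or a low or high array. In other lists they were those at an unadjusted p under 0.05 or, failing that, the farthest from 0. Same-numbered arrays are not said to be paired. Alternatives changed the unit of testing, the scaling, a filter on dim genes, the variance model, a block and the arrays used.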

Additional observations from a re-analysis of the deposited data

How the results depend on the processing

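No alternative called a member after adjustment, and the ordinary test could hardly have done so with so few arrays. The 3 members at an unadjusted p under 0.05 became 0 at a threshold of 0.01 (0.291% of all genes), 1 in the brighter genes (4.59% of them; Ndufb2 and Ndufa1 are not among these), 1 in the ordinary test (Ndufs8; 3.85% of all genes) and 2 to 6 with an array left out (1.14% to 8.54% of all genes). The 21 members with groups apart became 29 to 38 with an array left out, where 1 array stands against 2 and 58.4% to 74.4% of all genes are apart. The subunit median was 0.0086 after repeated quantile normalization and -0.027 to 0.014 with an array left out, that of the assembly factors -0.017 to 0.046, and subunits minus assembly factors -0.073 to 0.016. Of the 26 genes named by the rule, 17 kept their sign under every alternative run. The variance models, the blocks and the filter on dim genes leave the difference itself unchanged. Only a change of scaling, probe sets or arrays could therefore turn a sign. Repeated quantile normalization turned Ndufa4 (0.015), Ndufaf3 (0.018), Ndufaf6 (0.0061) and Ndufs7 (0.0062, and 0.00039 after median centring). With an array left out the range crossed 0 for Ndufa4 (-0.028 to 0.016), Ndufa4l2 (-0.029 to 0.17), Ndufaf3 (-0.060 to 0.046), Ndufaf4 (-0.049 to 0.10), Ndufaf6 (-0.10 to 0.051), Ndufaf7 (-0.022 to 0.075), Ndufb6 (-0.30 to 0.025), Ndufs7 (-0.015 to 0.0052) and Ndufv1 (-0.078 to 0.024). The cause was not tested. Arrays of the same number deviated from their group means with a correlation of -0.484. A replicate block left 3 members at an unadjusted p under 0.05 (1.34% of all genes), and crossed pairing, added after seeing the data, left 4 (7.34%).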
